A study of Danio rerio with 12 samples.

Results

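The genes described here run protein folding and quality control in the endoplasmic reticulum (ER), the compartment where secreted and membrane proteins are made. They comprise ER chaperones and their helpers, lectin chaperones, protein disulfide isomerases, the machinery of ER-associated degradation, the sensors and transcription factors of the unfolded protein response (UPR), and the translocon, the channel through which new proteins enter the ER. They were chosen by a list of 33 gene names, and these matched 34 of the 35004 genes in the expression table, because sec61a1 has 2 zebrafish copies, sec61a1a and sec61a1b. Expression had been measured by poly(A)-selected RNA-seq of whole zebrafish larvae at 3 days after fertilization. The 4 groups were wild-type larvae in normoxia, gcn2 knockout larvae in normoxia, wild-type larvae exposed to hypoxia for 8 h, and gcn2 knockout larvae exposed to hypoxia for 8 h, with 3 biological replicate libraries each. The oxygen level, the knockout allele and the number of larvae per library are not given in the sources used here.

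Proteins entering the ER are bound by the chaperone BiP, monitored on their sugar chains by lectin chaperones, and given disulfide bonds by oxidoreductases. When unfolded proteins build up in mammalian cells, the sensors IRE1, ATF6 and PERK raise the transcription of many of these genes and slow translation. Gcn2, the kinase removed in the knockout, senses amino acid shortage and phosphorylates the same translation factor, eIF2 alpha, as PERK does. The roles named below are those known mainly from mammalian and yeast proteins.

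The libraries held between 15668848 and 16841145 reads assigned to genes, as recovered from the deposited values. The 34 genes had from 35 reads (dnajb9a, at most 74) to 6607 reads per library, and counting error is largest for dnajb9a and for creld2, with 72 to 225 reads. Averaged over genes, the squared difference between wild-type hypoxia replicates was 5.72 to 6.31 times that expected from counting error alone. Between replicates of the other groups it was 2.23 to 3.93 times. FPKM is a read count scaled by gene length and by a library size. The transcript of eif2ak4, the gene that encodes Gcn2, stood at 3.82, 3.91 and 3.63 FPKM in wild-type normoxia. In knockout normoxia it was lower, at 1.66, 1.85 and 1.70 FPKM. It was likewise lower in knockout hypoxia, at 1.55, 1.95 and 1.52 FPKM against 4.23, 4.18 and 4.25 FPKM in wild-type hypoxia. None of the 54 marker genes of pancreas, liver, cartilage and notochord, hatching gland and mucous cells, and muscle was at 0 in all libraries.

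Most of the folding genes fell with hypoxia in both genotypes, while 3 translocon genes, sec61a1a, sec61g and sec62, rose in both. The sec62 rise was less certain, since its wild-type call was lost under 14 of 21 alternative settings. In wild-type larvae 20 of the 34 genes fell and 3 rose, against 36.0% of all tested genes changing (19.2% lower and 16.8% higher), by limma on log2(FPKM + 1) with a Benjamini-Hochberg adjusted p under 0.05. In the knockout 15 fell and 4 rose, against 44.0% of all tested genes (22.2% lower and 21.8% higher). Without regard to the test, the libraries of the 2 oxygen levels did not overlap for 20 lower and 5 higher genes in the wild type, where 23.8% and 22.4% of all tested genes did so, and for 19 lower and 4 higher genes in the knockout, against 28.0% and 27.3%. The median log2 change of the 34 genes was -0.21 in the wild type and -0.19 in the knockout, where the median of all tested genes was 0.01 and 0.00. In RNA from whole larvae, fewer cells of a type and less RNA per cell cannot be told apart.

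**Figure D1:**
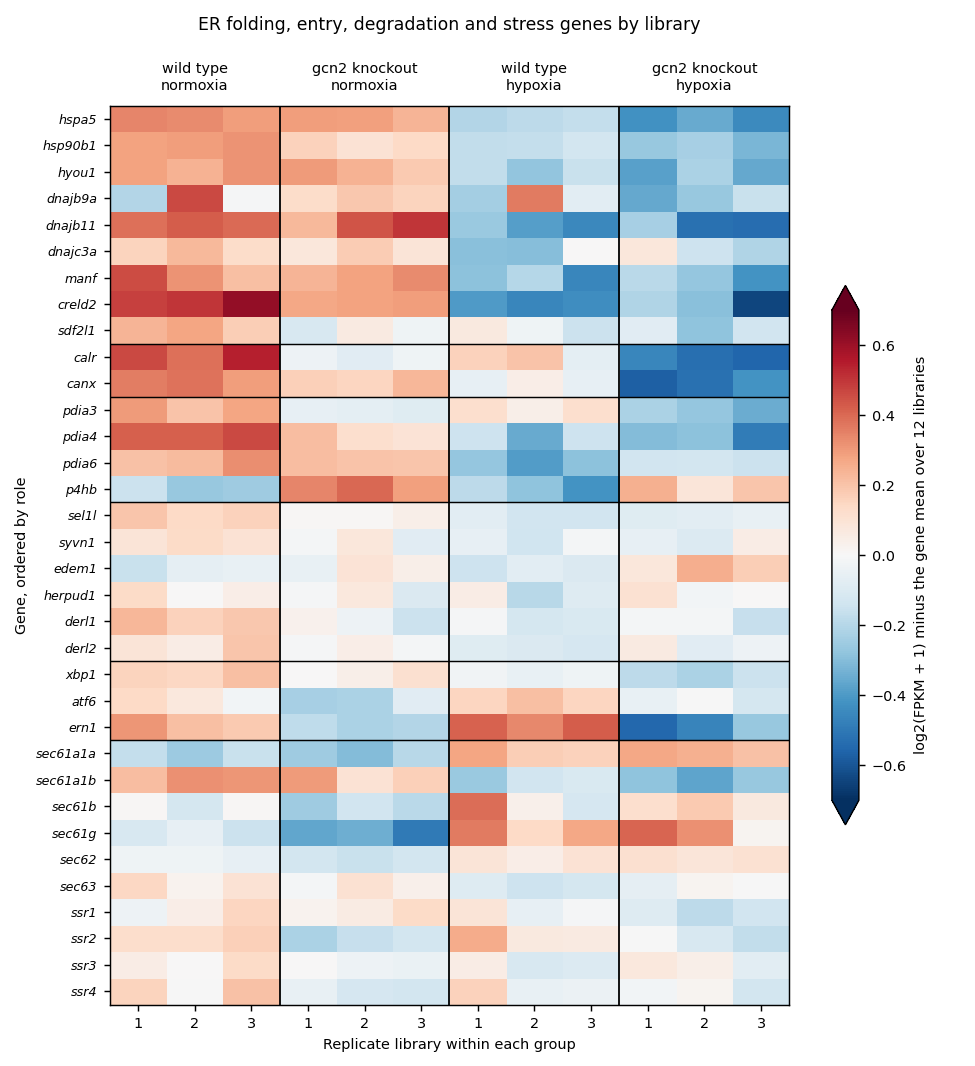
Heatmap of log2(FPKM + 1) minus each gene's mean over 12 libraries, with genes ordered by role (rows) and libraries by group (columns). The folding genes at the top are mostly above their means in normoxia and below them in hypoxia, and sec61a1a and sec61g show the opposite order, for example sec61a1a with 91.8 to 102 FPKM in normoxia and 127 to 138 FPKM in hypoxia.

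Among the 9 Hsp70 and Hsp90 chaperones with their helpers, 8 fell in wild-type hypoxia, 6 fell in knockout hypoxia and none rose. Of all tested genes 19.2% fell in wild-type hypoxia and 22.2% in knockout hypoxia. hspa5 encodes BiP, the ER Hsp70 that binds unfolded chains and holds the UPR sensors inactive (chromosome 5, bases 2713779 to 2721686, GRCz11). Its level was 164, 163 and 159 FPKM in wild-type normoxia, 159, 158 and 153 FPKM in knockout normoxia, 112, 114 and 115 FPKM in wild-type hypoxia, and 96.2, 101 and 94.6 FPKM in knockout hypoxia. Every hypoxic library lay below every normoxic library, and the knockout hypoxia libraries lay lowest. In the knockout the log2 change of hspa5 with hypoxia was -0.68 ± 0.04 (SE; limma adjusted p = 1.07e-07).

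hsp90b1, the ER Hsp90 paralog also called GRP94, folds a narrower set of clients that includes integrins and Toll-like receptors. It stood at 137, 138 and 140 FPKM in wild-type normoxia and at 99.7, 100 and 103 FPKM in wild-type hypoxia. In the knockout it went from 126, 121 and 124 FPKM to 93.4, 95.5 and 90.0 FPKM. The hypoxic and normoxic libraries did not overlap in either genotype, with log2 changes of -0.45 ± 0.04 (SE; limma adjusted p = 4.88e-06) and -0.41 ± 0.04 (7.45e-06). hyou1, a large Hsp70 relative that serves as a nucleotide exchange factor for BiP, has a name that means hypoxia up-regulated. Its level was 19.4 ± 0.519 FPKM in wild-type normoxia and 13.6 ± 0.657 FPKM in wild-type hypoxia, and 18.9 ± 0.803 and 12.5 ± 0.785 FPKM in the knockout (SD, n = 3). The change of hyou1 was negative in both genotypes, at -0.48 ± 0.06 (SE; limma adjusted p = 5.02e-05) and -0.56 ± 0.06 (1.04e-05).

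The largest fall among the 34 genes in the wild type was that of creld2, an ER protein that responds to ER stress and acts on disulfide bonds in mammals. Its level was 7.76, 7.90 and 8.64 FPKM in wild-type normoxia and 3.78, 3.59 and 3.66 FPKM in wild-type hypoxia. In the knockout it was 6.60, 6.64 and 6.71 FPKM under normoxia and 4.44, 4.14 and 3.04 FPKM under hypoxia. The groups were apart in both genotypes, with log2 changes of -0.96 ± 0.10 (SE; limma adjusted p = 9.22e-06) and -0.66 ± 0.10 (0.000126). The difference between these changes was 0.30 ± 0.13 and did not pass the test (adjusted p = 0.175).

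dnajb11, an Hsp40 co-chaperone that hands clients to BiP, fell by a similar amount in both genotypes. It stood at 17.3, 17.8 and 17.4 FPKM in wild-type normoxia and at 10.7, 9.71 and 9.24 FPKM in wild-type hypoxia. In the knockout it was 15.4, 18 and 18.8 FPKM under normoxia and 10.9, 8.74 and 8.68 FPKM under hypoxia. All 6 hypoxic libraries were below all 6 normoxic ones, and the log2 changes were -0.77 ± 0.09 and -0.82 ± 0.09 (SE; limma adjusted p = 3.47e-05 and 1.53e-05). manf, a secreted ER protein that stabilizes BiP-client complexes, went from 17.0 ± 1.55 to 10.5 ± 1.03 FPKM in the wild type and from 16.3 ± 0.548 to 10.7 ± 0.922 FPKM in the knockout (SD, n = 3), with log2 changes of -0.64 ± 0.08 and -0.57 ± 0.08 (SE; limma adjusted p = 8.40e-05 and 0.000146).

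The remaining 3 helpers gave smaller or less certain values. dnajc3a, an Hsp40 co-chaperone that in mammals also inhibits eIF2 alpha kinases, fell in the wild type (log2 change -0.37 ± 0.09 SE, limma adjusted p = 0.00764). In the knockout dnajc3a had -0.21 ± 0.09 and missed the threshold (0.0811). sdf2l1, a BiP cofactor that limits aggregation of misfolded proteins, fell in the wild type (-0.27 ± 0.07, 0.0122) and had -0.14 ± 0.07 in the knockout (0.150). dnajb9a, whose mammalian counterpart keeps IRE1 bound to BiP, did not pass in any comparison. Its wild-type libraries were spread from 3.69 to 6.45 FPKM in normoxia and overlapped those of hypoxia, at 3.57 to 5.95 FPKM. In the knockout dnajb9a was 4.90, 5.15 and 5.02 FPKM in normoxia and 3.21, 3.50 and 3.85 FPKM with hypoxia, without overlap. That change of -0.42 ± 0.16 missed the threshold (0.0577) and passed under 8 of 21 alternatives, with 0.00273 when the compared groups alone were fitted. Under TPM scaling, which gives each library the same sum, dnajc3a (-0.37) and sdf2l1 (-0.30) also passed in the knockout. The median change of all genes in knockout hypoxia was -0.14 under that scaling.

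Both lectin chaperones, calr and canx, fell with hypoxia in both genotypes. They bind the glucose-tipped sugar chains of new glycoproteins, calr in the ER lumen and canx from the membrane. canx stood at 82.7, 83.8 and 78.8 FPKM in wild-type normoxia, 72.2, 71.4 and 75.8 FPKM in knockout normoxia, 61.8, 66.3 and 61.6 FPKM in wild-type hypoxia, and 43.0, 44.5 and 47.9 FPKM in knockout hypoxia. The 4 groups did not overlap, and the order ran from wild-type normoxia down to knockout hypoxia. The log2 change of canx with hypoxia was -0.37 ± 0.05 in the wild type and -0.69 ± 0.05 in the knockout (SE; limma adjusted p = 0.000173 and 7.54e-07). The hypoxia change differed between genotypes for 9.25% of all tested genes (4.50% lower and 4.74% higher). In the main fit canx was the only 1 of the 34 genes with such a difference, at -0.32 ± 0.07 (adjusted p = 0.0245). That call was lost when any of 6 libraries was left out, with adjusted p between 0.0501 and 0.0645 and a difference of -0.29 to -0.33: wild-type normoxia replicate 1 or 3, knockout normoxia replicate 3, wild-type hypoxia replicate 2, or knockout hypoxia replicate 1 or 2.

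calr was lower in both hypoxia and knockout. Its level was 44.7, 42.3 and 47.3 FPKM in wild-type normoxia, 31.3, 30.4 and 31.4 FPKM in knockout normoxia, 36.0, 37.0 and 30.6 FPKM in wild-type hypoxia, and 23.1, 22.0 and 21.5 FPKM in knockout hypoxia. Wild-type hypoxia and knockout normoxia overlapped, and the other groups did not. With hypoxia, calr had a log2 change of -0.37 ± 0.07 in the wild type and -0.47 ± 0.07 in the knockout (SE; limma adjusted p = 0.00116 and 0.000146).

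Of the 4 protein disulfide isomerases, which form and reshuffle disulfide bonds, 3 fell with hypoxia in both genotypes. The shares of all tested genes that fell were 19.2% in the wild type and 22.2% in the knockout. pdia4 stood at 48.4, 48.5 and 50.0 FPKM in wild-type normoxia and at 32.5, 28.0 and 32.5 FPKM in wild-type hypoxia, a log2 change of -0.65 ± 0.07 (SE; limma adjusted p = 1.71e-05). In the knockout pdia4 changed by -0.50 ± 0.07 (9.32e-05). pdia6, which in mammals also attenuates IRE1 signalling, was 28.2, 28.6 and 30.8 FPKM in wild-type normoxia and 20, 18.3 and 19.8 FPKM in wild-type hypoxia. The wild-type groups were well apart for both genes, and pdia6 changed by -0.57 ± 0.05 there (3.99e-06) and by -0.34 ± 0.05 in the knockout (0.000170).

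pdia3, the oxidoreductase that works with calr and canx on glycoproteins, fell less, by -0.17 ± 0.05 in the wild type and -0.21 ± 0.05 in the knockout (SE; limma adjusted p = 0.0150 and 0.00293). The wild-type call for pdia3 missed the threshold when replicate 1 (0.0657) or 3 (0.0539) of wild-type normoxia, or replicate 2 of wild-type hypoxia (0.0553), was left out. p4hb, which encodes the founding protein disulfide isomerase and is also the beta subunit of collagen prolyl 4-hydroxylase, did not pass the test with hypoxia. Its log2 change was -0.08 ± 0.07 in the wild type (0.408) and -0.17 ± 0.07 in the knockout (0.0568). The knockout libraries did not overlap, and that change passed under 9 of 21 alternatives, reaching -0.33 (0.000357) with TPM scaling. This scaling also moved the median change of all genes in knockout hypoxia to -0.14.

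**Figure D2:**
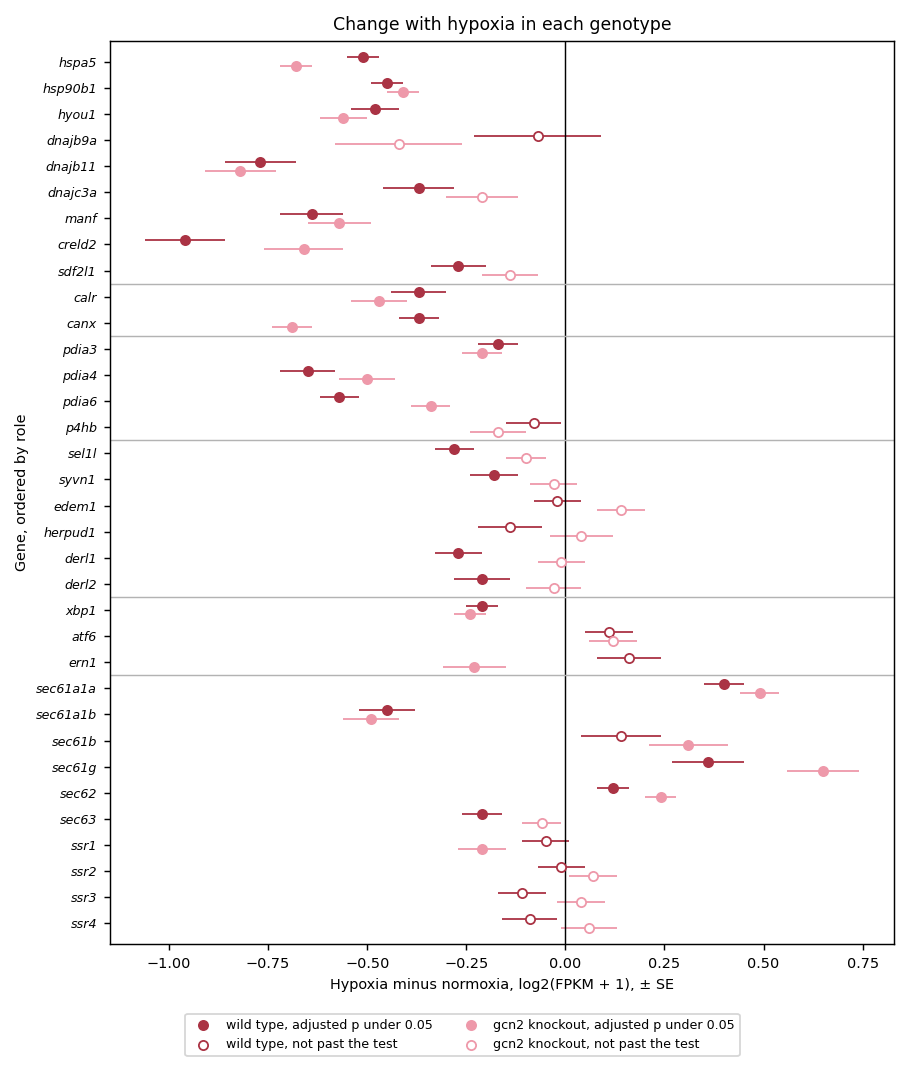
Log2 change of FPKM + 1 with hypoxia (x axis, ± SE, 3 libraries against 3) for each gene (y axis, ordered by role), in wild type (dark) and gcn2 knockout (light). Filled points passed the test, and they run from creld2 at -0.96 in the wild type to sec61g at 0.65 in the knockout.

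ER-associated degradation returns misfolded proteins to the cytosol for the proteasome. Of its 6 genes here, 4 fell in wild-type hypoxia and none passed the test in knockout hypoxia. Among all tested genes, 36.0% and 44.0% changed. sel1l, the adaptor that steadies the ubiquitin ligase, stood at 14.7, 14.1 and 14.3 FPKM in wild-type normoxia and at 12.0, 11.5 and 11.5 FPKM in wild-type hypoxia. The corresponding knockout values were 12.8, 12.8 and 13.1 FPKM and 11.9, 12.0 and 12.2 FPKM. In each genotype the groups were apart, by a smaller gap in the knockout, and the log2 changes of sel1l were -0.28 ± 0.05 (SE; limma adjusted p = 0.000589) and -0.10 ± 0.05 (0.117). derl1, a rhomboid pseudoprotease of the exit channel, was 22.8, 21.7 and 22.1 FPKM in wild-type normoxia and 19.2, 17.6 and 17.8 FPKM in wild-type hypoxia. Its knockout libraries overlapped, at 19.7, 18.8 and 17.3 FPKM under normoxia and 19.1, 19.1 and 17.1 FPKM under hypoxia. The log2 change of derl1 was -0.27 ± 0.06 in the wild type (0.00451) and -0.01 ± 0.06 in the knockout (0.917).

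syvn1, the ubiquitin ligase HRD1, fell by 0.18 on the log2 scale in the wild type (limma adjusted p = 0.0348), and derl2, a relative of derl1, fell by 0.21 (0.0322). Both calls were borderline: syvn1 missed the threshold under 8 of the 21 alternatives run for this comparison, and derl2 under 6 of 20, since derl2 and ern1 did not pass the stricter filter at 5 FPKM. edem1, a mannosidase-like protein that marks glycoproteins for disposal, had -0.02 ± 0.06 in the wild type and 0.14 ± 0.06 in the knockout, and herpud1, a scaffold of the ligase, had -0.14 ± 0.08 and 0.04 ± 0.08, none of which passed. The difference in hypoxia change between genotypes was positive for all 6 genes, from 0.15 to 0.26, and passed the test for none of them, with derl1 at 0.26 ± 0.09 (SE; adjusted p = 0.0774). Under TPM scaling, which moved the median change of all genes in knockout hypoxia to -0.14, sel1l (-0.25) and derl1 (-0.17) passed in the knockout as well.

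The UPR regulators moved little with hypoxia. xbp1, the transcription factor whose mRNA is spliced by IRE1, was 62.7, 62.3 and 65.2 FPKM in wild-type normoxia and 55.2, 54.1 and 55.0 FPKM in wild-type hypoxia. In the knockout it was 56.3, 57.9 and 60.8 FPKM under normoxia and 49.4, 48.1 and 50.5 FPKM under hypoxia. The groups were apart in each genotype, with log2 changes of -0.21 ± 0.04 and -0.24 ± 0.04 (SE; limma adjusted p = 0.00274 and 0.000919). Values per gene do not separate spliced from unspliced xbp1, nor cleaved from intact Atf6, so activity of these branches was not measured.

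atf6, a membrane-bound transcription factor that is released by cleavage, had 0.11 ± 0.06 in the wild type and 0.12 ± 0.06 in the knockout (SE), and neither passed (limma adjusted p = 0.205 and 0.152). ern1 encodes IRE1, the sensor with kinase and endoribonuclease domains (chromosome 3, bases 55420176 to 55481157, GRCz11). It stood at 3.48, 3.18 and 3.10 FPKM in wild-type normoxia, 3.81, 3.56 and 3.85 FPKM in wild-type hypoxia, 2.2, 2.10 and 2.14 FPKM in knockout normoxia, and 1.47, 1.62 and 2.01 FPKM in knockout hypoxia. All wild-type libraries were above all knockout libraries, and hypoxic libraries were the higher ones in the wild type and the lower ones in the knockout. The log2 change of ern1 with hypoxia was 0.16 ± 0.08 in the wild type (0.172) and -0.23 ± 0.08 in the knockout (0.0458), and the latter missed the threshold under 14 of the 20 alternatives that could be run for ern1. The difference between genotypes was -0.38 ± 0.12 and did not pass (0.0630). It passed under 3 of 19 alternatives. With voom on recovered reads it was -0.56 (0.00907), and without knockout hypoxia replicate 3 it was -0.47 (0.0296). With TPM scaling, where the median difference over all genes was -0.08, it was -0.55 (0.043).

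The translocon genes moved in both directions. Of 10 genes, 3 rose and 2 fell in wild-type hypoxia, and 4 rose and 2 fell in knockout hypoxia. That was 50% and 60% called, against 36.0% and 44.0% of all tested genes. The 2 copies of the channel-forming alpha subunit went opposite ways. Both lie on chromosome 6 (GRCz11), sec61a1a at bases 40065201 to 40071899 and sec61a1b at bases 42377911 to 42388608. sec61a1a was 101, 95.1 and 102 FPKM in wild-type normoxia, 95.3, 91.8 and 99.0 FPKM in knockout normoxia, 138, 128 and 127 FPKM in wild-type hypoxia, and 137, 135 and 131 FPKM in knockout hypoxia. Its hypoxic libraries were all above its normoxic ones, and the genotypes overlapped in normoxia and in hypoxia. The change of sec61a1a was 0.40 ± 0.05 in the wild type and 0.49 ± 0.05 in the knockout (SE; limma adjusted p = 5.45e-05 and 7.13e-06).

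sec61a1b was far lower and fell. It stood at 12.1, 13.1 and 13.0 FPKM in wild-type normoxia, 12.9, 11.1 and 11.7 FPKM in knockout normoxia, 8.45, 9.31 and 9.49 FPKM in wild-type hypoxia, and 8.28, 7.73 and 8.41 FPKM in knockout hypoxia. The hypoxic and normoxic libraries did not overlap, and the log2 changes of sec61a1b were -0.45 ± 0.07 and -0.49 ± 0.07 (SE; limma adjusted p = 0.000257 and 9.14e-05). The ratio of sec61a1a to sec61a1b FPKM was between 7.24 and 8.48 in the 6 normoxic libraries and between 13.4 and 17.5 in the 6 hypoxic libraries. Reads shared between these similar copies could have been assigned to either, so their absolute split is uncertain.

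The small gamma subunit of the channel, sec61g, also rose. It was 31.2, 32.5 and 30.3 FPKM in wild-type normoxia and 43.8, 37.3 and 40.9 FPKM in wild-type hypoxia. In the knockout sec61g was 26, 26.5 and 23.7 FPKM under normoxia and 45.1, 42.5 and 34.3 FPKM under hypoxia. The groups were apart in each genotype, and the changes were 0.36 ± 0.09 and 0.65 ± 0.09 (SE; limma adjusted p = 0.00721 and 9.67e-05), with a difference of 0.29 ± 0.13 that did not pass (0.167). sec61b, the beta subunit, had 0.14 ± 0.10 in the wild type, where replicate 1 of hypoxia stood at 80.0 FPKM and the others at 62.2 and 55.8 FPKM. In the knockout sec61b rose by 0.31 ± 0.10 (adjusted p = 0.0220), a call lost under 6 of 21 alternatives.

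sec62 and sec63 together assist the entry of finished short proteins, and sec63 recruits BiP to the channel. sec62 rose in the knockout from 20.2 ± 0.236 to 24.1 ± 0.299 FPKM (SD, n = 3; log2 change 0.24 ± 0.04 SE, limma adjusted p = 0.000550). In the wild type sec62 rose by 0.12 ± 0.04 (0.0445), and this call was lost under 14 of 21 alternatives. Under TPM scaling sec62 had 0.09 in both genotypes and did not pass in either. sec63 fell in the wild type, by 0.21 on the log2 scale (0.00911), and had -0.06 ± 0.05 in the knockout (0.408). The 4 subunits of the translocon-associated protein complex, ssr1 to ssr4, which help certain signal sequences to enter, lay between -0.11 and -0.01 in the wild type, with none past the test. In the knockout ssr1 fell by 0.21 (0.0111), lost without knockout normoxia replicate 3 (0.0519), and ssr2, ssr3 and ssr4 lay between 0.04 and 0.07 and did not pass. The direction there depended on scaling: ssr3 had -0.12 with TPM scaling and -0.14 with quantile normalization, and ssr2 -0.11 with the latter, each past the test.

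**Figure D3:**
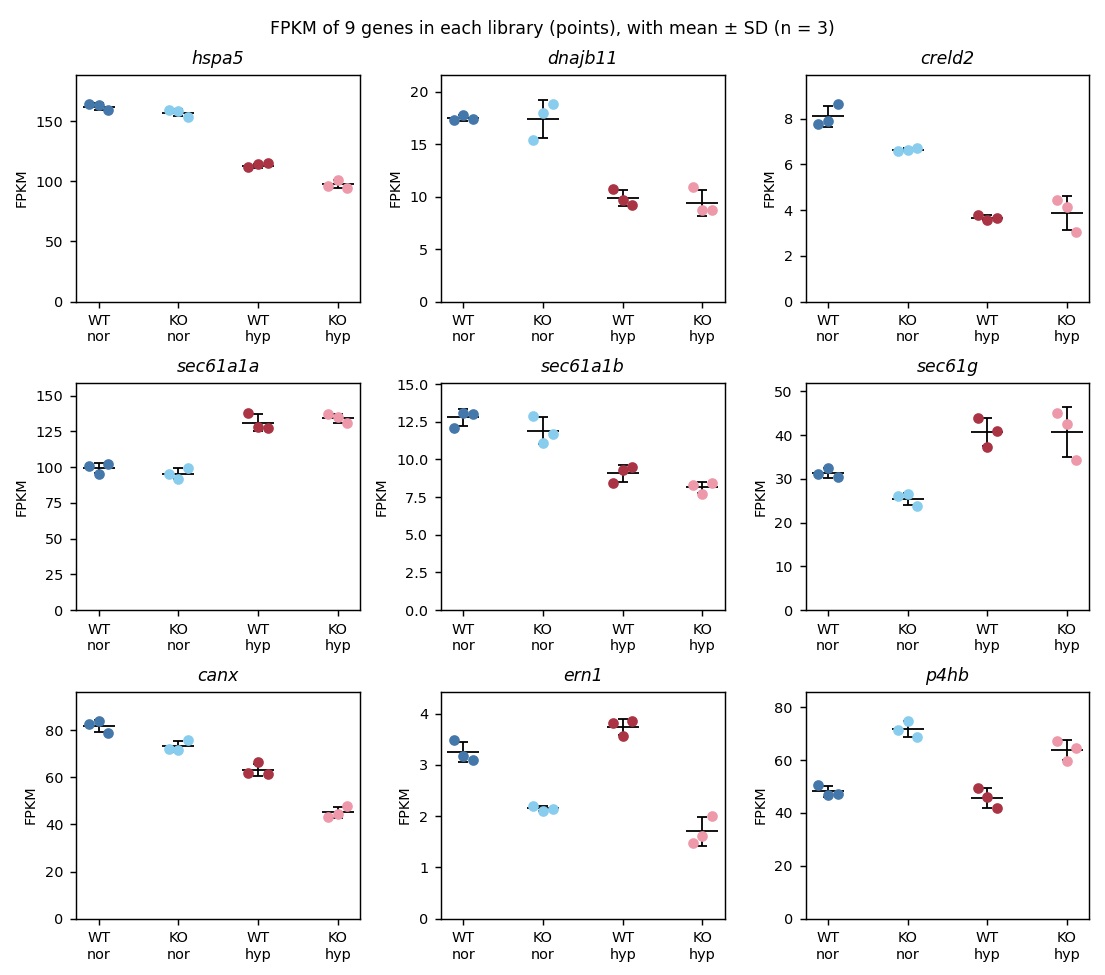
FPKM (y axis, from 0) of 9 genes in the 12 libraries (points) by group (x axis; WT wild type, KO gcn2 knockout, nor normoxia, hyp hypoxia), with the mean ± SD of 3 libraries in black. hspa5, dnajb11, creld2 and sec61a1b are lower in hypoxia, sec61a1a and sec61g are higher, canx is lowest in knockout hypoxia at 43.0 to 47.9 FPKM, and ern1 and p4hb separate by genotype.

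In all, 13 genes fell with hypoxia in both genotypes: hspa5, hsp90b1, hyou1, dnajb11, manf, creld2, calr, canx, pdia3, pdia4, pdia6, xbp1 and sec61a1b. The 3 that rose in both were sec61a1a, sec61g and sec62, the last with a wild-type call lost under 14 of 21 alternatives. Under TPM scaling sec62 passed in neither genotype. The wild-type and knockout comparisons share no libraries, and across the 34 genes their log2 changes had a Pearson r of 0.86, with 28 genes of the same sign. Over all 21480 tested genes r was 0.70 and 70.9% had the same sign. The share of all tested genes called in the same direction in both genotypes was not computed. These values are across genes, which are not independent replicates.

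In summed FPKM the 9 chaperones with helpers went from 396 to 403 in wild-type normoxia to 281 to 285 in wild-type hypoxia, and from 372 to 375 to 247 to 261 in the knockout. The 10 translocon genes summed to 708 to 759 FPKM in wild-type normoxia and 723 to 818 FPKM in wild-type hypoxia, which overlapped. In the knockout they summed to 658 to 666 FPKM in normoxia and 696 to 755 FPKM in hypoxia, without overlap. Markers of some tissues moved too. For comparison with the counts below, 19.2% of all tested genes were lower and 16.8% higher in wild-type hypoxia. In knockout hypoxia these shares were 22.2% and 21.8%. The 18 exocrine pancreas markers summed to 433 to 679 FPKM in wild-type normoxia and 164 to 303 FPKM in wild-type hypoxia, and to 887 to 1285 and 439 to 540 FPKM in the knockout. Of 17 tested pancreas markers, 14 were lower in hypoxia in each genotype. Skeletal muscle markers summed to 6448 to 6614 FPKM in wild-type normoxia and 8672 to 9584 FPKM in wild-type hypoxia, with 5 of 6 higher. Of 11 tested liver markers, 3 were higher and 2 lower in wild-type hypoxia, and 4 higher and 2 lower in knockout hypoxia. Of 12 cartilage and notochord markers, 3 were higher and none lower in wild-type hypoxia, and 2 higher and 7 lower in knockout hypoxia. Of 5 tested hatching gland and mucous cell markers, 3 were lower in the wild type and 2 in the knockout. The part of these tissues in the fall of the chaperones was not tested.

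**Figure D4:**
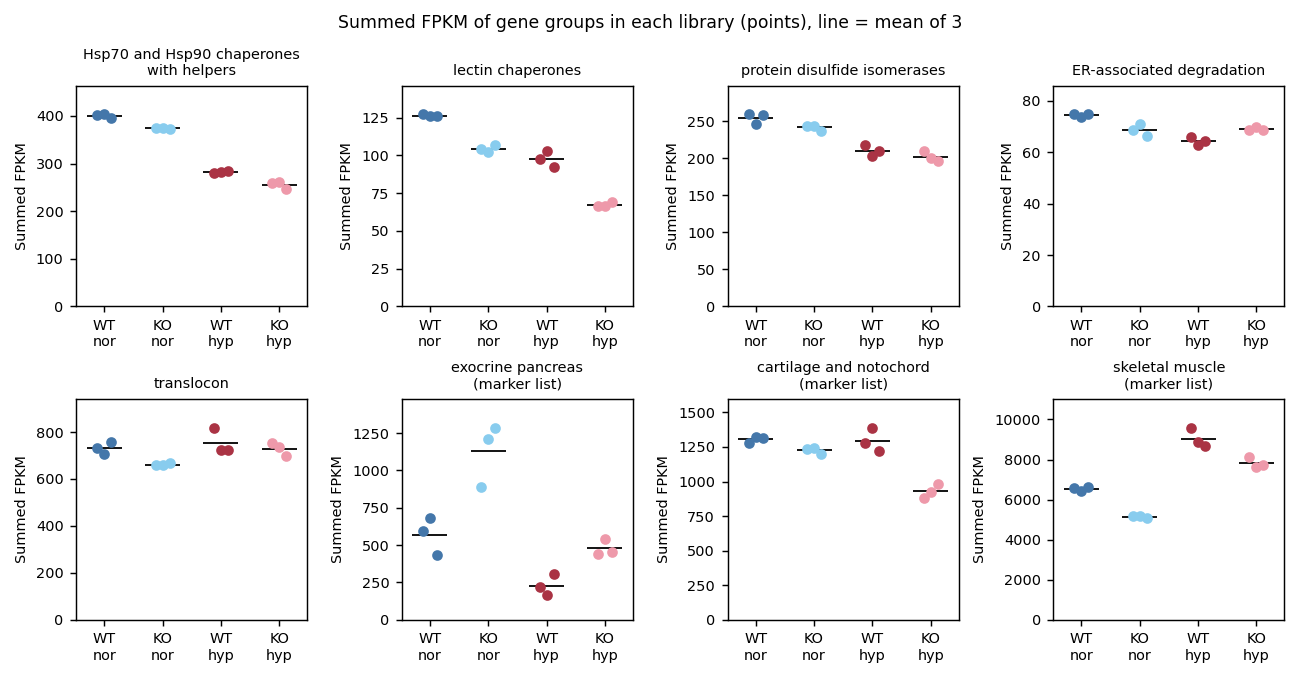
Summed FPKM (y axis, from 0) of 5 role groups and 3 marker lists in each library (points, with the mean of 3 as a line), by group (x axis; WT wild type, KO gcn2 knockout, nor normoxia, hyp hypoxia). Chaperones fall with hypoxia in both genotypes, while the exocrine pancreas markers are lower in hypoxia and higher in the knockout, at 887 to 1285 FPKM in knockout normoxia.

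Neighbouring genes of the secretory pathway gave counts in the same direction. Of 47 other ER folding factors, 31 fell and 3 rose in wild-type hypoxia, and 30 fell and 4 rose in knockout hypoxia, 72.3% called in each against 36.0% and 44.0% of all tested genes. Among these, calr3b, another calreticulin gene, changed by -0.56 ± 0.05 and -0.57 ± 0.05 (SE; limma adjusted p = 2.21e-06 and 1.37e-06). ero1a, the oxidase that recharges disulfide isomerases, went the other way, from 1.46, 1.08 and 1.43 to 7.03, 5.51 and 5.74 FPKM in the wild type and from 0.720, 0.654 and 0.418 to 2.29, 2.34 and 2.29 FPKM in the knockout. All hypoxic libraries of ero1a were above the normoxic ones, with log2 changes of 1.61 ± 0.11 and 1.05 ± 0.11 (4.22e-07 and 9.22e-06). Of 12 oligosaccharyltransferase genes, which attach sugar chains to entering proteins, 9 fell in the wild type, and 7 fell and 2 rose in the knockout. Of the wild-type calls, ostc had -0.67 ± 0.05 and ddost -0.48 ± 0.05 (1.78e-06 and 8.60e-06), and in the knockout stt3b had -0.96 ± 0.06 and rpn1 -0.50 ± 0.05 (2.20e-07 and 3.57e-06). Of 24 genes of ER-to-Golgi transport, 12 fell and 1 rose in the wild type, and 13 fell and 2 rose in the knockout.

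Other degradation and stress genes were mixed. Of 28 further genes of ER-associated degradation, 7 fell and 3 rose in the wild type, and 6 fell and 9 rose in the knockout, 35.7% and 53.6% called, the former at the share of all tested genes. vcp, the ATPase that pulls proteins out of the ER, went from 152, 154 and 162 to 92.1, 85.2 and 89.1 FPKM in the wild type (log2 change -0.81 ± 0.04 SE, limma adjusted p = 7.20e-08), and derl3, another derlin, rose by 1.12 ± 0.12 in the knockout (1.33e-05). Of 17 further UPR genes, 3 rose and 2 fell in the wild type, and 6 rose and 3 fell in the knockout, 29.4% and 52.9% called. ppp1r15a, which directs dephosphorylation of eIF2 alpha, was 19.1, 17.8 and 18.3 FPKM in wild-type normoxia and 64.8, 63.3 and 60.6 FPKM in wild-type hypoxia. It was 18.4, 18.1 and 16.9 FPKM in knockout normoxia and 104, 80.1 and 76.8 FPKM in knockout hypoxia. The hypoxic groups were apart from the normoxic ones and from each other, and the hypoxia change of ppp1r15a was larger in the knockout by 0.49 ± 0.13 (0.0343). Of 10 collagen hydroxylases, 5 rose and none fell in the wild type, and 4 rose and 3 fell in the knockout. The prolyl 4-hydroxylases among them use p4hb as a subunit. p4ha1b, a catalytic subunit, rose by 2.37 ± 0.12 in the wild type and 2.42 ± 0.12 in the knockout (3.05e-08 and 1.73e-08). Of 14 genes of signal recognition and signal peptidase, 5 fell and none rose in each genotype. That is 35.7% lower in each, where 19.2% of all tested genes were lower in the wild type and 22.2% in the knockout. Called in either direction were 36.0% and 44.0% of all tested genes.

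Knockout larvae in normoxia had lower levels of several of the 34 genes. Against wild-type normoxia 10 fell and 1 rose, where 16.7% of all tested genes changed (9.11% lower and 7.63% higher), with a median log2 change of -0.11 over the 34 genes and -0.01 over all tested genes. Against wild-type hypoxia, knockout hypoxia had 9 lower and 3 higher, where 33.1% of all tested genes changed (16.2% lower and 17.0% higher). The median there was -0.04, with a range of -0.09 to 0.02 when single libraries were left out, the value of 0.02 coming without wild-type hypoxia replicate 1. Genotypes did not overlap for 21 lower genes and 1 higher gene in normoxia (21.8% and 18.8% of all tested genes) and for 11 lower and 5 higher genes in hypoxia (21.3% and 21.4%). The normoxia count of 11 calls dropped to 6 when replicate 1 or 3 of wild-type normoxia, or replicate 2 or 3 of knockout normoxia, was left out.

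p4hb was the gene that rose most in the knockout. It stood at 50.6, 46.6 and 47.3 FPKM in wild-type normoxia and at 71.5, 74.7 and 68.9 FPKM in knockout normoxia. In hypoxia p4hb was 49.4, 46.1 and 41.8 FPKM in the wild type and 67.1, 59.8 and 64.5 FPKM in the knockout. Every knockout library was above every wild-type library, with log2 changes of 0.56 ± 0.07 in normoxia and 0.47 ± 0.07 in hypoxia (SE; limma adjusted p = 0.000137 and 0.000213). Among the other 3 disulfide isomerases, pdia3 went the other way and fell from 132, 123 and 130 to 103, 102 and 101 FPKM in normoxia (-0.33 ± 0.05, 0.000648) and from 116, 110 and 116 to 91.8, 88.4 and 83.9 FPKM in hypoxia (-0.37 ± 0.05, 0.000105). pdia4 fell in normoxia by 0.29 on the log2 scale (0.0135), a call lost when replicate 3 of wild-type normoxia, or replicate 2 or 3 of knockout normoxia, was left out (0.0506 to 0.0568), and pdia6 rose in hypoxia by 0.18 ± 0.05 (0.0177), a call lost under 5 of 21 alternatives.

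calr fell in the knockout at both oxygen levels, by 0.51 on the log2 scale in normoxia and by 0.61 in hypoxia (limma adjusted p = 0.000373 and 4.09e-05). canx fell in knockout hypoxia, with -0.48 ± 0.05 (SE; 3.56e-05), and had -0.16 ± 0.05 in normoxia, which missed the threshold (0.0553). hspa5 was lower in the knockout in hypoxia, with -0.22 ± 0.04 (0.00165), and had -0.05 ± 0.04 in normoxia (0.431), while the difference between these did not pass (-0.17 ± 0.06, 0.0856). That difference passed under 2 of 20 alternatives, TPM scaling (-0.30, 0.027) and quantile normalization (-0.32, 0.0204). The median difference over all genes was then -0.08 and 0.01. hsp90b1 was lower by 0.16 in normoxia (0.0200) and by 0.12 in hypoxia (0.0395), and these calls were lost under 6 and 13 of 21 alternatives.

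**Figure D5:**
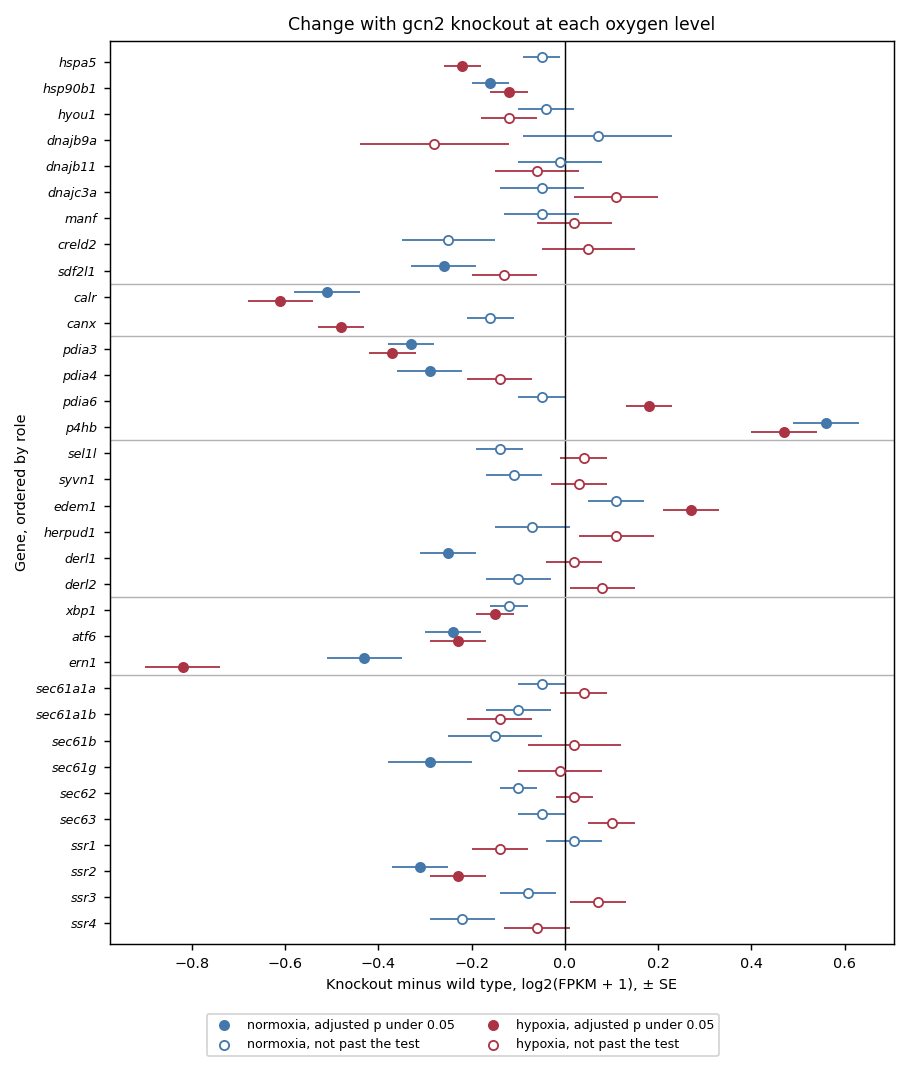
Log2 change of FPKM + 1 with gcn2 knockout (x axis, ± SE, 3 libraries against 3) for each gene (y axis, ordered by role), in normoxia (blue) and hypoxia (red). Filled points passed the test, with p4hb highest at 0.56 and 0.47, and calr and ern1 lowest in normoxia and hypoxia respectively, at -0.51 and -0.82.

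The 3 UPR regulators were lower in knockout hypoxia, and 2 of them also in knockout normoxia. Of all tested genes 16.2% were lower in knockout hypoxia and 9.11% in knockout normoxia. ern1 had -0.43 ± 0.08 in normoxia and -0.82 ± 0.08 in hypoxia (SE; limma adjusted p = 0.00479 and 2.41e-05). atf6 went from 13.9, 13.2 and 12.3 to 10.5, 10.6 and 11.8 FPKM in normoxia and from 14.0, 14.6 and 14.0 to 12.0, 12.5 and 11.4 FPKM in hypoxia. The atf6 groups did not overlap, with -0.24 ± 0.06 and -0.23 ± 0.06 (0.0211 and 0.0138). The normoxia call was lost under 5 of 21 alternatives and the hypoxia call without knockout hypoxia replicate 3 (0.0509). xbp1 had -0.15 ± 0.04 in hypoxia (0.0233), lost under 3 of 21 alternatives, and -0.12 ± 0.04 in normoxia, which did not pass (0.0853).

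Among the translocon genes ssr2 was lower in the knockout at both oxygen levels. It stood at 145, 145 and 150 FPKM in wild-type normoxia, 114, 119 and 122 FPKM in knockout normoxia, 160, 140 and 139 FPKM in wild-type hypoxia, and 133, 123 and 118 FPKM in knockout hypoxia. The genotypes were apart at each oxygen level, with log2 changes of -0.31 ± 0.06 and -0.23 ± 0.06 (SE; limma adjusted p = 0.00483 and 0.0133), and the hypoxia call was lost under 2 of 21 alternatives. sec61g was lower in knockout normoxia by 0.29 (0.0426), a call lost under 9 of 21 alternatives. Of the degradation genes, derl1 was lower in knockout normoxia by 0.25 (0.0191), lost under 5 of 21 alternatives, and edem1 was higher in knockout hypoxia by 0.27 ± 0.06 (0.00497). sdf2l1 was lower in knockout normoxia by 0.26 (0.0304), lost under 6 of 21 alternatives. dnajb9a, herpud1, ssr3 and ssr4 passed in none of the 5 comparisons in the main fit. In knockout normoxia ssr4 had -0.22 ± 0.07 (0.0549) and passed under 6 of 21 alternatives. With quantile normalization ssr4 also passed in knockout hypoxia (-0.19, 0.0166). In wild-type hypoxia ssr3 had -0.11 ± 0.06 (0.150) and passed under 3 of 21 alternatives.

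The genes lower in the knockout at both oxygen levels were atf6, calr, ern1, hsp90b1, pdia3 and ssr2, 6 in all. Of these, calr, ern1 and pdia3 kept both calls under every alternative run. For atf6 and hsp90b1 both calls were lost under some alternatives, and for ssr2 the hypoxia call was. Only p4hb was higher at both. The share of all tested genes called in the same direction at both oxygen levels was not computed. The normoxia and hypoxia comparisons share no libraries, and over the 34 genes their changes had a Pearson r of 0.69. Over all tested genes r was lower, at 0.59. The changes had the same sign for 18 of the 34 genes, a smaller share than the 60.8% of all tested genes. Exocrine pancreas markers were higher in the knockout, 12 of 17 in each comparison with 1 lower. The shares of all tested genes were 7.63% higher and 9.11% lower in normoxia, and 17.0% higher and 16.2% lower in hypoxia. The 12 cartilage and notochord markers summed to 1219 to 1389 FPKM in wild-type hypoxia and 882 to 985 FPKM in knockout hypoxia, where all 12 were lower. Skeletal muscle markers were lower in knockout normoxia, 5 of 6, with 5067 to 5182 FPKM in sum against 6448 to 6614 FPKM in the wild type, and in knockout hypoxia 3 were lower and 1 higher. Liver markers were 2 higher and 1 lower of 11 in knockout normoxia, and 7 higher and 1 lower in knockout hypoxia. Among 5 tested hatching gland and mucous cell markers, 2 were lower and none higher in knockout normoxia. In knockout hypoxia 2 of these were lower and 1 higher. The part of these tissues in the knockout differences was not tested.

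Among the neighbouring genes in the knockout, 15 of 47 other ER folding factors fell and 2 rose in normoxia. In hypoxia 14 fell and 5 rose. That is 36.2% and 40.4% called, against 16.7% and 33.1% of all tested genes. serpinh1b, a collagen-specific chaperone, was 29.6, 28.0 and 30.7 FPKM in wild-type normoxia and 16.7, 15.7 and 17.2 FPKM in knockout normoxia. It was 36.4, 34.3 and 28.1 FPKM in wild-type hypoxia and 16.5, 15.6 and 17.4 FPKM in knockout hypoxia. The genotypes were far apart for serpinh1b, with log2 changes of -0.80 ± 0.08 and -0.95 ± 0.08 (SE; limma adjusted p = 5.12e-05 and 7.39e-06). Of 10 collagen hydroxylases, 3 fell in knockout normoxia and 7 in knockout hypoxia, 30% and 70% called, and none rose. Of 17 further UPR genes, 1 rose and 1 fell in knockout normoxia, and 3 rose and 2 fell in knockout hypoxia, 11.8% and 29.4% called. Among them atf4a, a transcription factor translated when eIF2 alpha is phosphorylated, was lower by 0.43 in normoxia and by 0.33 in hypoxia (0.000653 and 0.00189). Of 28 further degradation genes, only derl3 was called in knockout normoxia, and 7 rose and 2 fell in knockout hypoxia, 3.57% and 32.1% called. derl3 was higher, with 0.56 ± 0.12 in normoxia and 1.22 ± 0.12 in hypoxia (0.00806 and 1.73e-05). In normoxia and hypoxia, 14.3% and 28.6% of signal recognition and signal peptidase genes were called. For oligosaccharyltransferase genes these shares were 33.3% and 25%, and for ER-to-Golgi transport 37.5% and 33.3%.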

How the data were processed

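Poly(A) RNA-seq values of 12 libraries of whole zebrafish larvae were used, in 4 groups of 3. Per the submitters' processing notes, the tools were fastp, HISAT2 2.2.1 and featureCounts 2.0.6, with the GRCz11 build. The authors deposited FPKM per gene and library with gene lengths. The scaling behind FPKM and the use of strand are not given in the sources used here. Multiplying FPKM by gene length gave whole reads within 0.05 of a step for 100% of values. There were 15668848 to 16841145 reads per library, and these reads entered 1 alternative. The library size behind FPKM was not the sum of these reads. Its ratio to that sum was 1.013 to 1.038 in wild-type normoxia and 1.06 to 1.068 in knockout normoxia. The ratio was lower in hypoxia, at 0.95 to 0.997 in the wild type and 0.945 to 0.98 in the knockout.

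The filter kept genes that reached 1 FPKM in 3 or more libraries (21480 genes, all 34 members among them). log2(FPKM + 1), which understates changes of low genes, was fitted with limma 3.58.1 (R 4.3.3) with a variance trend over all 12 libraries. The Benjamini-Hochberg threshold was 0.05 over all tested genes, for 5 comparisons: hypoxia in each genotype, knockout at each oxygen level, and their interaction. The script was tested on simulated data.

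Members and lists were chosen with earlier results of these data known. Members were matched by name, and dnajb9a and the 2 sec61a1 copies by description. Named genes were all members, eif2ak4, and in each of 7 companion lists and comparison the 2 called genes with the smallest p. Of these companion genes examples are given. The sister copies dnajb9b and dnajc3b, counted in the companion lists, are not described. Of 161 companion names and 56 marker names, 157 and 54 genes were found. The alternatives changed the pseudocount, filter, scaling, design and test, and left out each library. Same-numbered libraries showed little shared deviation from their group means, with correlations of -0.0867 to 0.119 over 18 pairs. This does not exclude that the replicate numbers pair samples. In the main fit each p-value set a difference between groups against the spread between replicate libraries, pooled over all 12 libraries. Wild-type hypoxia replicates differed most, so a pooled spread can understate the error of comparisons with that group.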

Additional observations from a re-analysis of the deposited data

Results flagged for a closer look

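The hypoxia change of canx, the membrane lectin chaperone, differed between genotypes by the interaction test. Its log2 change was more negative in the knockout than in the wild type by 0.32, a difference of -0.32 (SE 0.07, limma adjusted p = 0.0245). The call was lost under 6 of 20 alternatives, with limma adjusted p between 0.0501 and 0.0645. All 3 knockout hypoxia libraries, at 43.0, 44.5 and 47.9 FPKM, were below the 3 wild-type hypoxia libraries, at 61.8, 66.3 and 61.6 FPKM. Of the 12 cartilage and notochord markers, 5 passed the interaction test, all negative, and 7 did not pass, while 10 of the 12 values were negative and 2 positive. All interaction calls in the other marker lists were positive. They comprised 2 of 11 liver, 1 of 5 hatching gland and mucous cell, and 1 of 6 skeletal muscle markers. None of 17 exocrine pancreas markers passed. Of all tested genes 4.50% passed with a negative value and 4.74% with a positive value. The part of these tissues in the canx value was not tested.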

How the results depend on the processing

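Of the calls among the 34 genes, 19 of 23 in wild-type hypoxia, 15 of 19 in knockout hypoxia, 5 of 11 for the knockout in normoxia, 7 of 12 for the knockout in hypoxia and 0 of 1 for the interaction held under every alternative run (21 for each comparison and 20 for the interaction, with 1 fewer for ern1 and derl2, which did not pass the filter at 5 FPKM). Scaling each library to the same sum (TPM scaling) moved the median log2 change of all genes from 0.00 to -0.14 in knockout hypoxia and from 0.03 to -0.08 for the interaction, so the changes below stand beside those shifts. With it, 23 of the 34 genes were lower and 2 higher in knockout hypoxia, against 15 and 4 as deposited, and of all genes 7231 were lower and 2768 higher, against 4767 and 4684. In the other comparisons it gave 4476 lower and 3025 higher of all genes in wild-type hypoxia (4125 and 3598 as deposited), 1238 and 2125 for the knockout in normoxia (1957 and 1638), 4266 and 2821 for the knockout in hypoxia (3470 and 3641), and 1698 and 409 for the interaction (967 and 1019), and quantile normalization gave 1066 and 658 for the interaction. For the knockout in hypoxia 11 of the 34 genes were then lower and 2 higher, and 12 and 2 with quantile normalization, against 9 and 3. The median change of the 34 genes under this scaling and under quantile normalization was -0.24 and -0.18 in wild-type hypoxia, -0.35 and -0.22 in knockout hypoxia, -0.09 and -0.09 for the knockout in hypoxia, and -0.02 and -0.03 for the interaction, and under the TPM scaling -0.05 for the knockout in normoxia. Calls among the 34 genes became 6 for the knockout in normoxia with the TPM scaling, and for the interaction 4 with it, 4 with quantile normalization, 2 with a filter at FPKM 5 and 2 with voom on recovered reads. Beside canx, these interaction calls were hspa5, ern1 and ssr1 with the TPM scaling, and hspa5, pdia3 and ssr1 with quantile normalization. They were pdia6 with the filter at FPKM 5 and ern1 with voom. Leaving out wild-type hypoxia replicate 1 added pdia6, derl1 and sec61b. Leaving out knockout hypoxia replicate 3 added creld2, derl1, ern1 and sec61g. With no filter 1230 genes passed the interaction. In knockout hypoxia ssr3 turned to -0.12 with the TPM scaling and -0.14 with quantile normalization, and ssr2 to -0.11 with the latter. The cause was not tested.

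Leaving out single libraries gave 19 to 23, 16 to 20, 6 to 13, 9 to 12 and 0 to 5 calls among the 34 genes for hypoxia in the wild type, hypoxia in the knockout, the knockout in normoxia, the knockout in hypoxia and the interaction. In that order the medians ranged from -0.23 to -0.19, -0.19 to -0.15, -0.12 to -0.10, -0.09 to 0.02 and 0.07 to 0.13, and the calls over all genes from 6331 to 7781, 7967 to 9662, 2048 to 3993, 5224 to 6979 and 480 to 2839. With the replicate number as a block, the calls among the 34 genes were 21, 21, 12, 11 and 1. When the compared groups alone were fitted, 18 of the 34 genes were lower and 2 higher in wild-type hypoxia, against 20 and 3. In knockout hypoxia 16 were lower and 4 higher, against 15 and 4. For the knockout in normoxia 13 were lower and 1 higher, against 10 and 1. For the knockout in hypoxia 6 were lower and 2 higher, against 9 and 3, and 23.8% of all genes were called, against 33.1%. Same-numbered libraries showed little shared deviation: of 18 correlations, 1 was above 0.1, with a median of 0.0152.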
